A study of Homo sapiens with 4 samples.

Results

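The transcription factors SNAI1, SNAI2, ZEB1, ZEB2, TWIST1 and TWIST2 were examined in RIP-seq of MDA-MB-231 cells, a human triple negative breast cancer cell line. They were chosen by name, and every transcript row that carried one of the 6 gene names was kept. This gave 22 of 75165 listed transcripts, in 4 of the 6 genes, out of 20298 genes in all. TWIST1 and TWIST2 had no row in the table and are therefore not listed, which gives no value for either gene. All libraries came from cells that carried a 3x flag-YTHDC1 lentivirus, added at a multiplicity of infection of 4 before puromycin selection (2 μg/ml, 4 days), so the input libraries share the overexpression. There were 2 libraries of RNA recovered with anti-flag antibody from nuclear lysate (IP) and 2 libraries of the starting lysate (input), and both groups were UV-crosslinked 3 times. The vector drives YTHDC1 from a CMV promoter, so the IP libraries describe RNA recovered with overexpressed tagged protein rather than with the cell's own. The amount of tagged protein relative to the cell's own is not given by the counts.

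The table gives 1 usable value for each transcript, the authors' mean normalized count over all 4 libraries together. It holds no value for a library or for a group, so none of the values below has an error or a number of replicates, and binding is not compared between IP and input here. The counts are not divided by transcript length. They are normalized estimates, in which reads that several isoforms share were split between them by RSEM, and the order of the genes by count is not an order of molecules per cell. With bulk RNA, fewer cells that hold a transcript and less of it in each cell cannot be told apart.

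The 6 factors are the core repressors and activators of epithelial-mesenchymal transition (EMT), in which epithelial cells lose E-cadherin junctions and become motile. SNAI1 and SNAI2 are zinc finger repressors, ZEB1 and ZEB2 carry zinc finger clusters on both sides of a homeodomain, and TWIST1 and TWIST2 are basic helix-loop-helix factors that pair with E proteins. All of them bind E-box DNA, and TGF-β signaling through SMAD proteins induces several of them. YTHDC1 is the nuclear reader of N6-methyladenosine in RNA, with roles in splicing and export.

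ZEB1 was the member with most listed transcripts, and its start region is shown because an antisense lncRNA, ZEB1-AS1, was listed beside it. In the RefSeq annotation of GRCh38.p14, ZEB1 lies on the plus strand of chromosome 10 from 31318417 to 31529804. ZEB1-AS1 lies on the minus strand from 31307717 to 31320447, so the genes overlap over 2031 bases. RefSeq gives 7 start windows for ZEB1 and 2 for ZEB1-AS1, and 4 of the 7 ZEB1 starts lie inside the ZEB1-AS1 gene. At 2 places a ZEB1-AS1 start lies just upstream of a ZEB1 start and points away from it. Each window below runs 5′ to 3′ on the plus strand from 250 bases before a ZEB1 start, and the capitals mark the stretch from the ZEB1-AS1 start to the ZEB1 start. The first window is chr10:31318966-31319265, with 120 bases between the starts, and the second is chr10:31320304-31320603, with 106 bases between them.
First window: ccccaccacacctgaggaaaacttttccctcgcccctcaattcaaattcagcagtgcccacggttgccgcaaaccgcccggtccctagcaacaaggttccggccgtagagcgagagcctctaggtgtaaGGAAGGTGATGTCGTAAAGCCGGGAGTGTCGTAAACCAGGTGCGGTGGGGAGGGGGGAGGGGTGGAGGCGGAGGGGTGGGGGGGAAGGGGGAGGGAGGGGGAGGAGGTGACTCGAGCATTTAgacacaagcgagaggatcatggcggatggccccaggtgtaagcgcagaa
Second window: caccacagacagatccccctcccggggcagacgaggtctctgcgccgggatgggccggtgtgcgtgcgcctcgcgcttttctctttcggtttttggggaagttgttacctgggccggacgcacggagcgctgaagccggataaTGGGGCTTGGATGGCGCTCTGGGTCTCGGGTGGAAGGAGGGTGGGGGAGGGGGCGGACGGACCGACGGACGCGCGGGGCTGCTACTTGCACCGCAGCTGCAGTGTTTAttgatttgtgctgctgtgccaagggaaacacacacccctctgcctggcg
The windows had a GC content of 61.7% and 65.0%, against a median of 58.7% over 35116 RefSeq start windows of the same length with quartiles of 47% and 68%, so both lay within the quartiles. Where exons of both genes overlap, only the strand of a read separates them. How much of the gene overlap is exon in both was not computed. The libraries were made with a strand-keeping kit, and the strand setting of the counting is not given in the sources used here, so counts in the overlap are uncertain for both genes.

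The values of all 22 transcripts, from 3.91 to 623 mean normalized counts with a median of 47.4, are drawn by gene in the plot of listed transcripts. Of the 22 transcripts, 15 are annotated as protein-coding, 5 as retaining an intron and 2 as processed transcripts without an open reading frame. Over all listed transcripts these types made up 52.3%, 15.4% and 12.7%, and the difference was not tested. Together the 22 transcripts held 2869 mean normalized counts, or 0.00860% of the table's sum. A mean of at least 100 was reached by 10 transcripts, and 3 were below 10. For scale, the median over all listed transcripts was 44.2 and the lowest was 2.72.

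**Figure D1:**
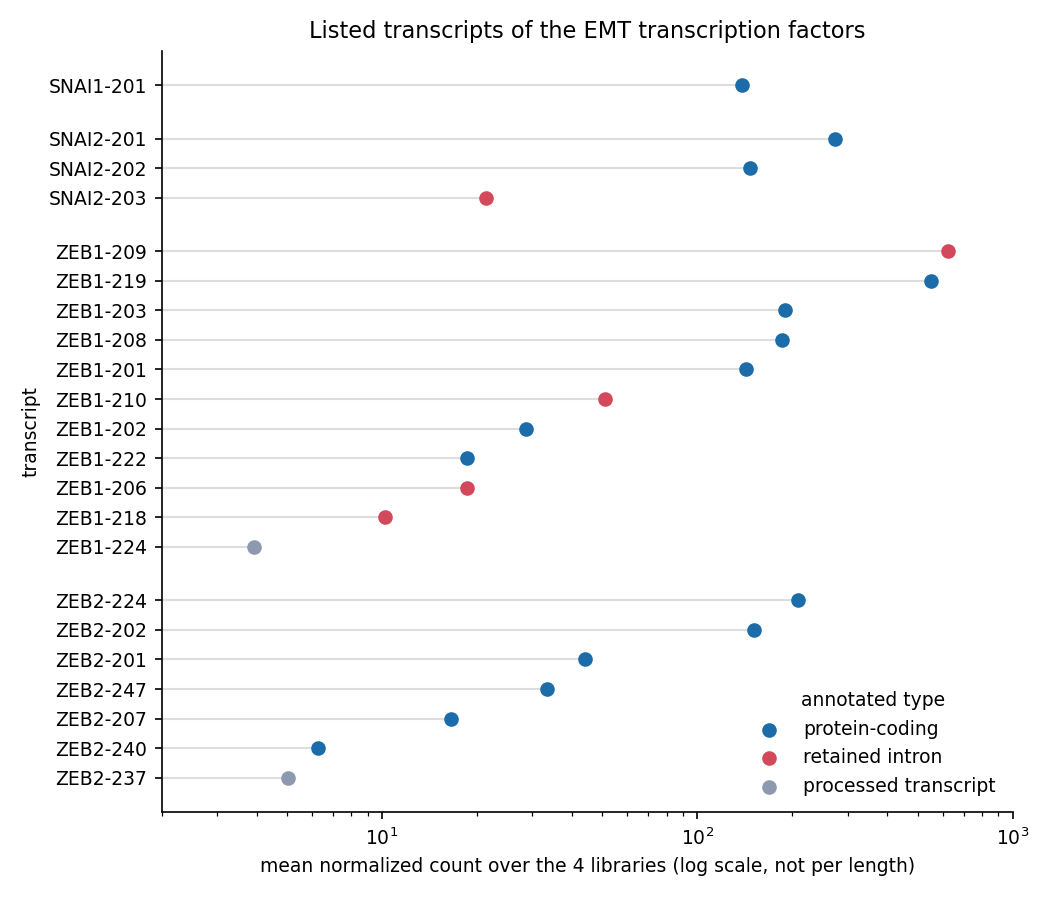
Mean normalized count over the 4 libraries (x axis, log scale, not per length) of each of the 22 listed transcripts (y axis), grouped by gene and coloured by annotated type, with 1 point per transcript and no error. ZEB1-209, a retained-intron transcript, has the highest value at 623, and ZEB1-224 the lowest at 3.91.

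SNAI1 (ENSG00000124216.4), the Snail repressor that TGF-β induces early in EMT, was listed with 1 transcript. SNAI1-201 (ENST00000244050.3), annotated as protein-coding, had a mean normalized count of 139, above that of 70.7% of all listed transcripts. The gene spans 5907 bases on chromosome 20, from 49982980 to 49988886. With no other listed isoform there was no division of its reads among transcripts of the gene, as in 18.3% of the 14050 protein-coding genes listed.

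SNAI2 (ENSG00000019549.13), also known as Slug, was listed with 3 transcripts and a summed mean of 442. The coding transcript SNAI2-201 (ENST00000020945.4) had 274 mean normalized counts, or 62.0% of the sum. A second coding transcript, SNAI2-202 (ENST00000396822.6), had 147, or 33.2%. The third, SNAI2-203 (ENST00000649776.1), is annotated with a retained intron and had 21.4, or 4.84%. Most of the SNAI2 reads therefore fell on coding transcripts, 95.2% in all, and the leading one had 1.87 times the count of the next. The gene lies on chromosome 8 from 48917598 to 48921429. The share of the leading transcript was below the median of 67.3% over the 1902 protein-coding genes with as many listed transcripts.

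ZEB1 (ENSG00000148516.21), which represses E-cadherin and the miR-200 family, was listed with 11 transcripts and a summed mean of 1823. Its reads were divided between a retained-intron transcript and several coding ones. The highest count belonged to ZEB1-209 (ENST00000542879.5), annotated with a retained intron, at 623 mean normalized counts or 34.2% of the sum. The coding transcript ZEB1-219 (ENST00000560721.6) followed at 550, or 30.2%, so the first exceeded the second 1.13 times, a gap whose error cannot be judged from a pooled mean of estimates. How many reads belonged to either transcript alone is not given. The RNA came from nuclear lysate and was depleted of rRNA before the libraries were made. Reads of unspliced ZEB1 RNA were not told apart from those of a retained-intron transcript, so the counts do not show how much of such an isoform the cells held. Further coding transcripts had lower counts, 190 for ZEB1-203, 186 for ZEB1-208 and 143 for ZEB1-201. The remaining coding transcripts, ZEB1-202 and ZEB1-222, had 28.5 and 18.7. It took 4 transcripts to hold 80% of the reads of the gene. Within the coding transcripts alone, ZEB1-219 made up 49.3% of 1117 mean normalized counts.

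The other retained-intron transcripts of ZEB1 were far below the leading one, with 50.8 for ZEB1-210, 18.6 for ZEB1-206 and 10.2 for ZEB1-218. The processed transcript ZEB1-224 had 3.91. Retained-intron transcripts thus held 38.5% of the ZEB1 sum and coding transcripts 61.2%. These shares pool IP and input libraries, so they do not give the make-up of ZEB1 RNA in the cells. ZEB1-209 alone made up nearly all of the retained-intron part, 623 of 703 mean normalized counts. Its count was above that of 97.5% of the 11560 retained-intron transcripts of the table, whose median was 22.6, whereas ZEB1-206 and ZEB1-218 lay below that median.

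The division of ZEB1 reads was set beside that of other genes as a description, chosen after its values were seen and without a test. Of the 11482 protein-coding genes with at least 2 listed transcripts, 372 (3.24%) had a retained-intron transcript as the leading one. Among the 5243 that list both coding and retained-intron transcripts, as ZEB1 does, there were 341 (6.50%). Among the 264 protein-coding genes with as many listed transcripts as ZEB1, there were 11 (4.17%), ZEB1 among them. The retained-intron share of ZEB1 exceeded that of 92.1% of these 5243 genes, whose median was 5.62% with quartiles of 1.91% and 15.6%. SNAI2, at 4.84%, lay near the middle of the same genes, above 46.1% of them. The leading share of ZEB1 was lower than the median of 46.0% over the genes with as many transcripts, and higher than in 25.4% of them.

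**Figure D2:**
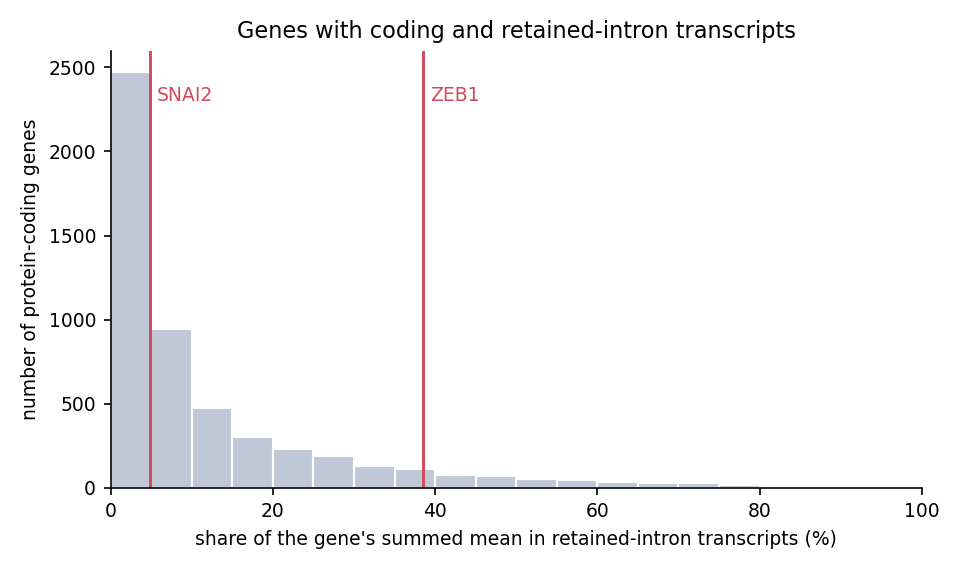
Number of protein-coding genes (y axis) by the share of the gene's summed mean normalized count in retained-intron transcripts (x axis, percent, bins of 5), over the 5243 genes with coding and retained-intron transcripts. Red lines mark SNAI2 at 4.84% and ZEB1 at 38.5%, the latter above 92.1% of the genes.

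ZEB2 (ENSG00000169554.21), the homolog of ZEB1, was listed with 7 transcripts and a summed mean of 465, and none of them was annotated with a retained intron. The coding transcript ZEB2-224 (ENST00000558170.6) had 209 mean normalized counts, or 44.9% of the sum. It was followed by the coding transcripts ZEB2-202 (ENST00000392861.6) at 151 (32.5%) and ZEB2-201 (ENST00000303660.8) at 44.0 (9.46%), and these 3 held at least 80% of the reads. The coding transcripts ZEB2-247, ZEB2-207 and ZEB2-240 had 33.4, 16.5 and 6.28. The processed transcript ZEB2-237 had 5.03. Coding transcripts thus held 98.9% of the ZEB2 sum, against 61.2% in ZEB1. The leading share of ZEB2 was below the median of 50.8% over the 875 protein-coding genes with as many listed transcripts. The median retained-intron share in those genes was 1.65%.

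**Figure D3:**
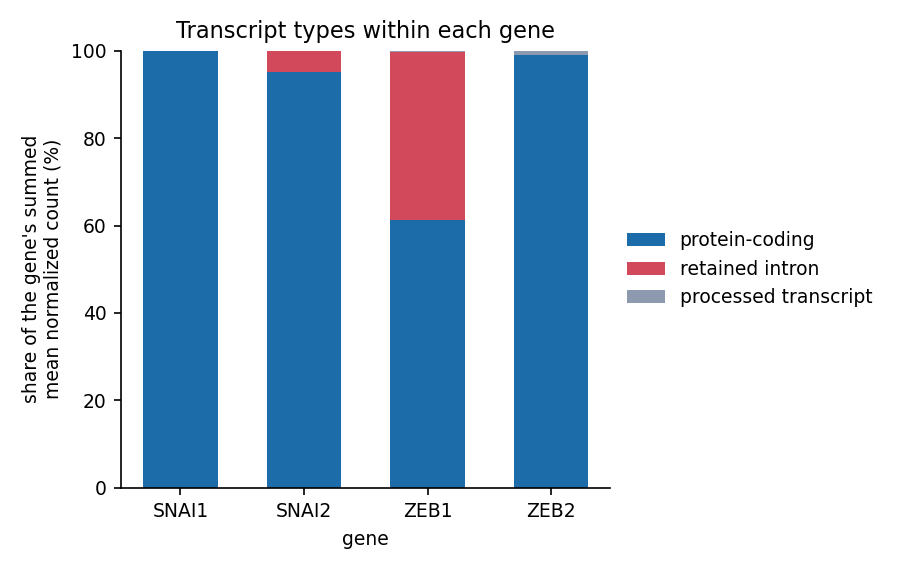
Share of each gene's summed mean normalized count (y axis, percent) by annotated transcript type, for the 4 listed genes (x axis). Retained-intron transcripts hold 38.5% in ZEB1 and 4.84% in SNAI2, and none is listed for SNAI1 and ZEB2.

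In RefSeq GRCh38.p14 coordinates, ZEB2 lies on chromosome 2 from 144384081 to 144520119 and overlaps the antisense lncRNA gene ZEB2-AS1 over 506 bases. ZEB2-AS1 had no row, whereas ZEB1-AS1 (ENSG00000237036.5) was listed with 3 transcripts. The lncRNA transcripts ZEB1-AS1-206 (ENST00000606250.1), ZEB1-AS1-203 (ENST00000441257.1) and ZEB1-AS1-209 (ENST00000607455.1) had 85.5, 62.6 and 8.05 mean normalized counts, a sum of 156.

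TWIST1 and TWIST2, on chromosomes 7 and 2, had no row. The authors' filter asked for 5 or more reads in no fewer than 50% of the libraries, so a missing row does not show that the RNA was absent. Of the E proteins that pair with TWIST factors, TCF3 was listed with 12 transcripts and a summed mean of 5037 and TCF12 with 14 transcripts and 1201, and TCF4 had no row.

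The genes around the 6 factors were taken from lists of EMT-linked factors, epithelial factors, corepressors, turnover regulators and targets, and are given by their listing and their reads. Of 13 other EMT-linked transcription factors, 11 were listed, with summed means from 4.17 for the homeobox factor PRRX1 to 5591 for SOX9. GSC and TCF4 had no row, and the Snail family member SNAI3 had 23.6 from 1 coding transcript. Of the 11, 6 had a single listed transcript, against 18.3% of all listed protein-coding genes. The leading transcript was coding in 8, and in the other 3 it was a processed transcript (TCF12 and PRRX1) or one annotated for nonsense-mediated decay (KLF8). The share of all genes led by a coding transcript was not computed, and neither count is read as a trait of these factors.

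Of 6 epithelial factors, several of which oppose ZEB1 or are repressed by it, 4 were listed. Their summed means ran from 5.61 for OVOL2, through 6.58 for GRHL2 and 187 for ESRP2, to 297 for ELF3. OVOL1 and ESRP1 had no row. The 1 listed OVOL2 transcript is a processed transcript and not a coding one.

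All 10 corepressors were listed, with summed means from 789 for HDAC2 to 8735 for AJUBA, a LIM protein that binds Snail factors. The ZEB partners CTBP1 and CTBP2 had 6136 and 6022, and KDM1A, the histone demethylase that SNAI1 recruits, had 3335. Each of the 10 was led by a coding transcript. How often a coding transcript leads over all genes was not computed, so this is not read as a trait of the corepressors.

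All 9 regulators of the stability of the factors' proteins were listed, from 189 for SIAH1, a ubiquitin ligase of ZEB1, to 2150 for FBXW7. Among the E3 components that act on SNAI1, FBXL14 had 780, BTRC 535 and FBXO11 466, and the kinase GSK3B had 1320. ATM, a kinase of ZEB1, had 38.1% of its reads in 7 retained-intron transcripts, but was led by the coding ATM-201.

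**Figure D4:**
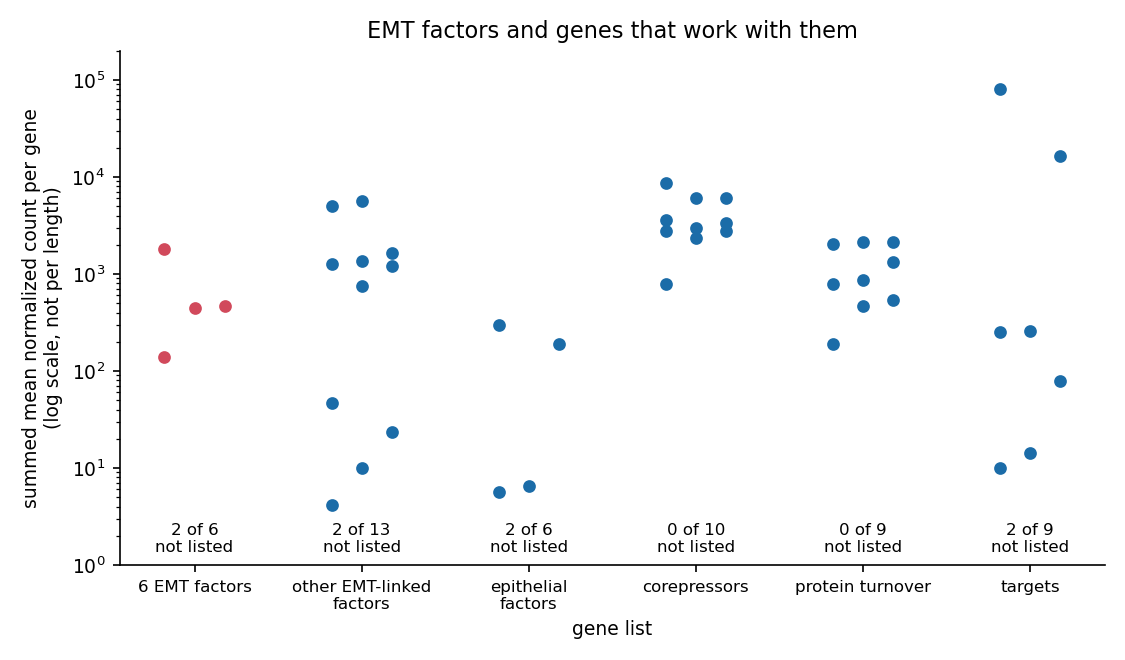
Summed mean normalized count of each listed gene (y axis, log scale, not per length) in 6 gene lists (x axis), with 1 point per gene, points spread sideways for sight and the number of genes without a row below. The 4 listed EMT factors lie between 139 and 1823, and the 10 corepressors between 789 and 8735.

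Of 9 targets, 7 were listed. CDH1, which encodes E-cadherin, had 10.0 mean normalized counts in 1 transcript, CDH1-209, annotated for nonsense-mediated decay, and no coding CDH1 transcript was listed. CDH2 (N-cadherin) had 14.4 in 2 coding transcripts. VIM (vimentin) had 80785, of which the coding VIM-201 held 87.7%, and FN1 (fibronectin) had 16414. The epithelial genes OCLN, CLDN7 and EPCAM had 261, 249 and 78.3, and CRB3 and MMP2 had no row. EPCAM, like ZEB1, was led by a retained-intron transcript, EPCAM-206 with 57.3% of its reads.

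The labelled cell line was set beside marker genes. The values are pooled over IP and input libraries of nuclear RNA, so they are not a measure of expression alone. All 4 mesenchymal-like breast cancer markers were listed, with summed means of 80785 for VIM, 63189 for AXL, 14306 for CD44 and 7624 for CAV1. Of 7 luminal markers, ESR1, PGR and FOXA1 had no row, CDH1 and EPCAM were at the values above, and GATA3 and KRT19 were listed at 584 and 7521. By count the luminal marker KRT19 was close to CAV1, so the markers did not all separate by count. The counts are not per length, so this does not compare the levels of these genes. YTHDC1, the overexpressed protein's gene, had 55488 mean normalized counts in 6 transcripts, and the table does not separate RNA of the vector from that of the cell's own gene.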

How the data were processed

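The RIP-seq experiment on MDA-MB-231 cells with Flag-YTHDC1 comprised 2 IP and 2 input libraries, grouped by the treatment label. Per the submitters' processing notes and the study's methods, reads were mapped with STAR (version 2.7.2b) to a transcriptome of GENCODE v33 on GRCh38 and estimated per transcript with RSEM (version 1.2.31). The authors dropped transcripts that did not reach 5 reads in 50% of the libraries, removed unwanted variation with RUVSeq and compared the groups with DESeq2. A read shared by several isoforms is split between them by estimate in RSEM, so a transcript's value can rest on few reads of its own. The deposited table holds a signal value, the authors' mean normalized count over all libraries, and 4 columns of the authors' own comparison, with the fold change of IP over input on the log2 scale, the error of that estimate, and raw and adjusted p-values. These 4 columns were not used. The total reads of each library are unknown, no interval or floor can be given, and the planned test of IP against input was not run. The stated replicates are biological.

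Here, means were summed over the listed transcripts of each gene, and shares were taken of that sum. Members were matched by exact gene name, and all 4 listed genes matched the separate table of gene names by Ensembl identifier. All 6 members are named, and from the other lists the genes with the highest and lowest sums, those without a row, and CDH1, VIM and YTHDC1. Other genes were named after their values were seen. The members and lists were chosen with earlier results of these data known. Coordinates and start windows came from RefSeq GRCh38.p14 (NCBI). Its table of start windows held no entry for SNAI1, SNAI2 and TWIST1. Python 3.11.15, numpy 2.4.6, pandas 2.3.3 and matplotlib 3.10.9 were used, and the sums and shares were tested on simulated data. Alternatives were coding transcripts alone and minimum means of 10 and 100.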

Additional observations from a re-analysis of the deposited data

How the results depend on the processing

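With a pooled mean there is no replicate spread, so any change of a value is given. In coding transcripts alone, the summed means were 420 for SNAI2, 1117 for ZEB1 and 460 for ZEB2, and the leading shares 65.1%, 49.3% and 45.3%. In ZEB1 the leading transcript was then ZEB1-219 and no longer ZEB1-209. With a minimum mean of 10, SNAI2 did not change. ZEB1 had a sum of 1819, a leading share of 34.2%, 61.4% in coding and 38.6% in retained-intron transcripts, and ZEB2 had 454, 46.0% and 100% coding. With a minimum of 100, 10 transcripts were left. SNAI2 then had 420, a leading share of 65.1%, 100% coding and 0% retained intron, ZEB1 had 1693, 36.8%, 63.2% coding and 36.8% retained intron, and ZEB2 had 360, 58.0% and 100% coding. SNAI1 stayed at 139 under these alternatives. Of the 22 transcripts, 15 were coding and 19 reached 10. The retained-intron shares were added after the data were seen. No paired analysis was possible because the table gives no value per library. For the same reason the tests of IP against input with edgeR or DESeq2, with replicates left out or without a filter, were not run, and depth limits could not be set.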
